A study of Mus musculus with 16 samples.

Results

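The 10 immediate early genes Fos, Fosb, Jun, Junb, Jund, Egr1, Atf3, Nr4a1, Ier2 and Dusp1 were followed across the cell classes of 2 mouse tumors. They were taken by name from the 31053 features of the count matrices. The list of names uses no measured value, but it was chosen with earlier results of these data known. The series held 16 single-cell libraries of live CD45+ cells, meaning cells that carry the leukocyte surface protein CD45. The cells came from subcutaneous MC38 (a colon carcinoma line) or Panc02-SIY (a pancreatic carcinoma line carrying the SIY antigen) tumors in C57BL/6J mice. Tumors were left untreated or were harvested 24 h after a single dose of 12 Gy, which gave 4 groups of 4 libraries: untreated MC38, irradiated MC38, untreated Panc02-SIY and irradiated Panc02-SIY. All 4 groups shared the same host strain, enzymatic digestion with a warm incubation, magnetic CD45 enrichment and sort. The labels did not tie libraries to animals, and the sources gave different numbers of animals in a group, so each p-value measured the spread between libraries.

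Immediate early genes are transcribed within minutes of a stimulus from factors already present in the cell, without new protein synthesis. Fos and Jun family proteins pair through leucine zippers to form the AP-1 transcription factor, MAP kinases drive much of the induction, and Dusp1 encodes a phosphatase that switches those kinases off. In tissue work these genes are also known to respond to enzymatic dissociation, to which every library here was exposed.

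The promoters of 4 members that recur below, Fos, Dusp1, Nr4a1 and Atf3, are shown as examples. Of these, Fos and Dusp1 had a treatment call within a class or T cell subset, and Atf3 and Nr4a1 had none. Such calls also fell on Jun, Egr1 and Fosb, whose promoters are not shown. Each is the 250 bases before the RefSeq start (GRCm38.p6, the same assembly as the mm10 build of the count tables), 5′ to 3′ on the gene's strand, with the CRE half-site TGACG, read on either strand, in capitals.
Fos, chr12:85473640-85473889, plus strand: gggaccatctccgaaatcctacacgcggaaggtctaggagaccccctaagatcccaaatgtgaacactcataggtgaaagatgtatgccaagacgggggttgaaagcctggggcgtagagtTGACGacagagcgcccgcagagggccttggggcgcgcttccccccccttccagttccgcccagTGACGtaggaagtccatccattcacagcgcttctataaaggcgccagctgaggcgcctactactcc
Dusp1, chr17:26508473-26508722, minus strand: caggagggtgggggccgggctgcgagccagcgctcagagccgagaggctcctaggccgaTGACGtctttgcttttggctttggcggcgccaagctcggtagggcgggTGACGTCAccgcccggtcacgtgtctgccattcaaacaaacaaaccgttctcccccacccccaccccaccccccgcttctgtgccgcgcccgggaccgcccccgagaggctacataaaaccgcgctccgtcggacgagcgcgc
Nr4a1, chr15:101266596-101266845, plus strand: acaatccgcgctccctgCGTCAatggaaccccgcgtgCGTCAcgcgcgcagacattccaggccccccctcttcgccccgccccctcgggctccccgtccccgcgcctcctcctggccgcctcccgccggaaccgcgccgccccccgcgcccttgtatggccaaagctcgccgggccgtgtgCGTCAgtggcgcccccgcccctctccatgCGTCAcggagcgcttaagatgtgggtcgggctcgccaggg
Atf3, chr1:191183334-191183583, minus strand: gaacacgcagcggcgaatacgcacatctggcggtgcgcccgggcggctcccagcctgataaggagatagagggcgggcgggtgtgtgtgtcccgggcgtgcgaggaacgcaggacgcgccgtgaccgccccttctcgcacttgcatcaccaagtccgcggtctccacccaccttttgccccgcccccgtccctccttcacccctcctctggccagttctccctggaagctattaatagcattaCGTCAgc
CRE half-sites bind CREB and ATF family factors. Of 7 members whose RefSeq start lay within 50 bases of a GENCODE start, 6 held at least 1 half-site (Nr4a1 4, Dusp1 3, Fos 2, and Fosb, Junb and Atf3 1 each), and Jun held none. Across all 32851 distinct promoters of this length, 17.8% held it. No CArG box (the site of serum response factor) and no AP-1 site TGANTCA was found in the 7 windows, against 1.47% and 6.75% of all promoters. At such low shares, 7 windows would be expected to hold few or none, so their absence is not informative. Sites farther than 250 bases from the start were not read. These matches are letters in a window and were not tested for binding. The RefSeq start of Jund lay 1210 bases from the nearest GENCODE start, so its window was left out. Egr1 and Ier2 were not searched either.

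Libraries held 3240877 to 10121198 UMIs (unique molecular identifiers, which count molecules) over 1008 to 1460 barcodes in MC38, and 5327146 to 43776342 UMIs over 1180 to 4538 barcodes in Panc02-SIY. The MC38 libraries shared most of their barcodes. Of 9843 MC38 barcodes only 2632 were distinct, and 769 occurred in all 8 libraries, whereas 18136 of 18835 were distinct in Panc02-SIY. Between 58.3% and 88.6% of the barcodes of an MC38 library held more UMIs in another MC38 library. The 769 shared barcodes lie in untreated and irradiated libraries alike, so the MC38 libraries may not be independent of each other, which the p-values assume, and the effect of this on the MC38 comparisons, those of treatment included, was not tested. The MC38 counts of calls and the main values are therefore also given after a barcode found in several libraries of a tumor was counted once, where it had the most UMIs (called richest-library barcodes here). All shares over all genes given below are from all barcodes. No such share was taken for richest-library barcodes, so their counts of calls have no background beside them. Cells were assigned to 7 classes by marker genes that include no member, and 20529 of 28678 barcodes passed the gate. Nearly all markers of each class were more than 2-fold higher in that class than elsewhere in the same tumor. In MC38, 1 of 9 macrophage markers lay below that. The gate used these same markers, so their enrichment was built in and is no check of the classes. Against classes from unsupervised clusters, 1762 gated monocytes fell in monocyte clusters, 827 in macrophage clusters and 148 in conventional dendritic cell clusters. Of gated macrophages, 6543 fell in macrophage clusters and 19 in monocyte clusters. The monocyte values below carry this limit. B cells and neutrophils were too few in MC38 to be measured. Levels are counts per 1000000 UMIs of a class in a library (CPM), and they are not compared between genes, because the assay reads only the 3′ end.

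The members differed in their order over cell classes. Fos, Jun, Atf3 and Dusp1 were highest in neutrophils in Panc02-SIY and in monocytes in MC38, and lowest in NK or T cells. These levels are shares of the UMIs of a class and not molecules per cell. Median UMIs per barcode in Panc02-SIY were 2387 in neutrophils and 9724 in monocytes. In irradiated Panc02-SIY replicate 3, 269 neutrophils and 162 monocytes held 513 and 660 UMIs of Jun. They held 323 and 647 of Atf3, and 3583 and 334 of Egr1. Junb, Ier2 and Nr4a1 were highest in neutrophils and lowest in macrophages in Panc02-SIY. Jund was highest in B cells in Panc02-SIY and in T cells in MC38, and lowest in macrophages in both. On the log2(CPM + 10) scale, the mean of monocytes, macrophages and conventional dendritic cells exceeded the mean of T and NK cells in 8 of 8 libraries for Fos, by 2.17 ± 0.41 (SD) in MC38 and 2.76 ± 0.44 in Panc02-SIY. Atf3, a stress-induced repressor of the ATF family, differed by 2.46 ± 0.82 and 3.25 ± 0.33 in the same direction. Jund differed in the other direction in all 8 libraries of each tumor, by -1.03 ± 0.14 in MC38 and -0.82 ± 0.17 in Panc02-SIY. Junb and Ier2 had no common direction, being positive in 5 and 3 of 8 MC38 libraries and in 2 and 1 of 8 Panc02-SIY libraries. This contrast of lineages was chosen after the levels were seen and is a description over all barcodes, without richest-library values.

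**Figure D1:**
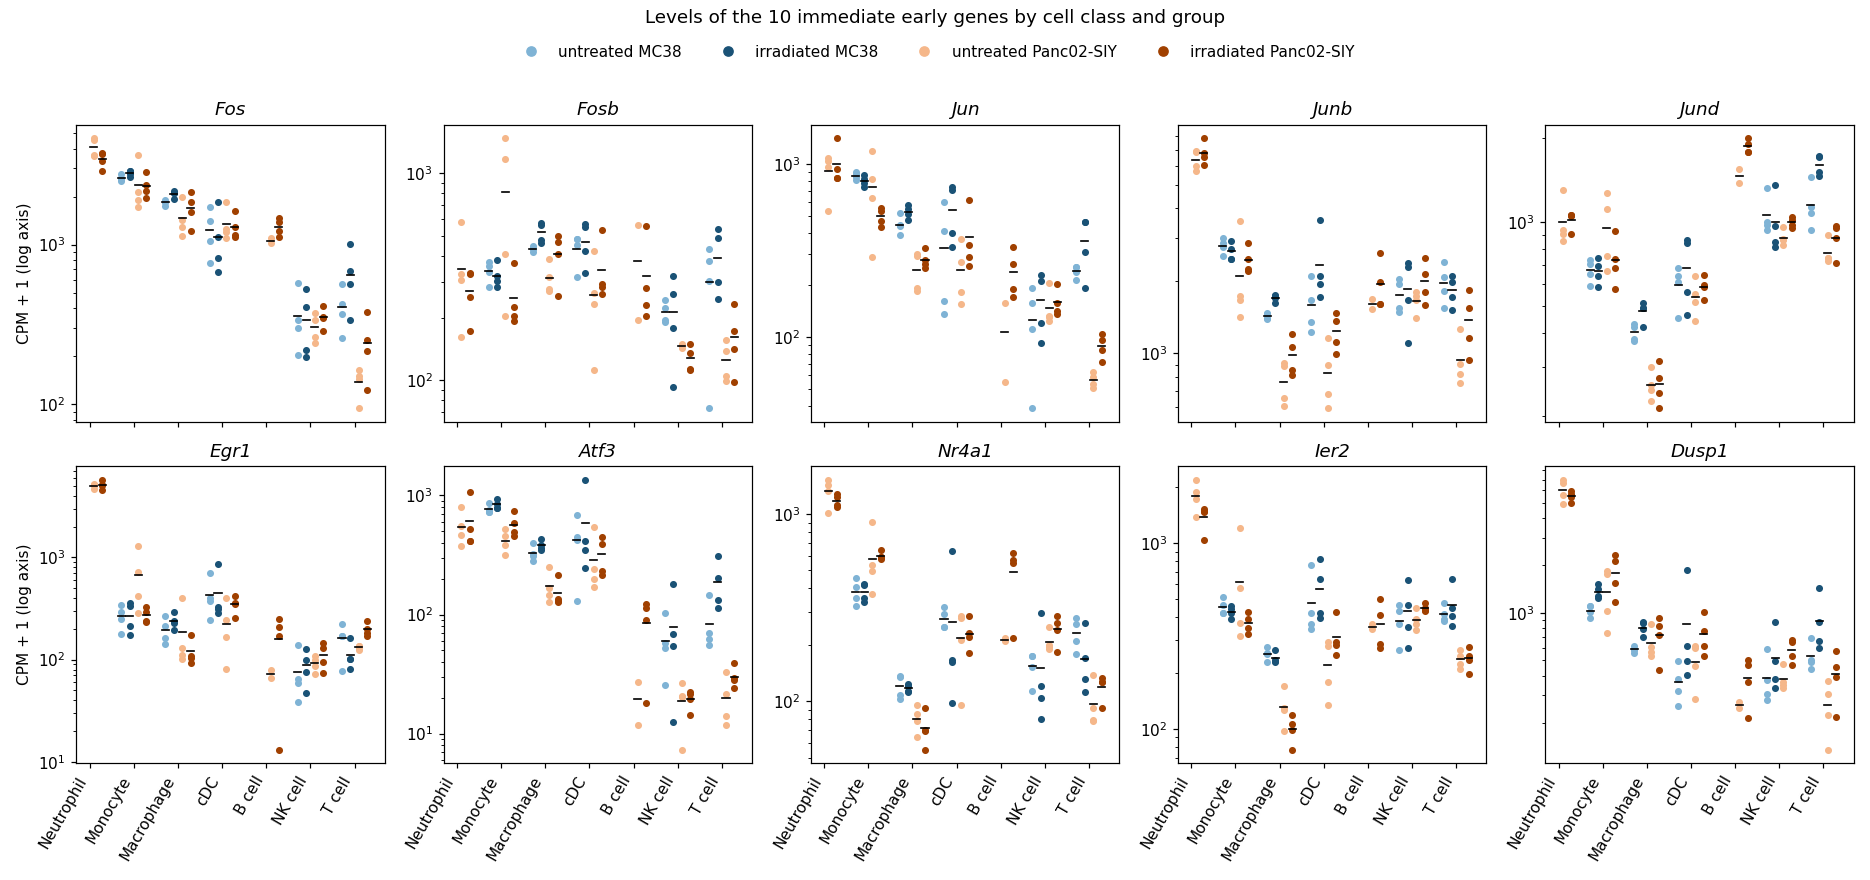
Level of each member in each cell class, in CPM plus 1 on a log axis, with 1 point for each library and a black line at the group mean. Fos falls from neutrophils to T cells in Panc02-SIY, Jund is lowest in macrophages in both tumors, and cDC stands for conventional dendritic cells; neutrophils and B cells have no MC38 points.

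Fos, a partner of Jun in AP-1, had mean levels in Panc02-SIY of 3758 CPM in neutrophils, 2344 in monocytes, 1583 in macrophages, 1322 in conventional dendritic cells, 1214 in B cells, 327 in NK cells and 189 in T cells. In MC38 the order was 2705 in monocytes, 1956 in macrophages, 1179 in conventional dendritic cells, 526 in T cells and 345 in NK cells. Neighbouring classes were compared by an exact two-sided sign-flip permutation test over the libraries of a tumor, adjusted by Benjamini-Hochberg over 100 such pairs of all members. The order itself was set from these libraries, so only the size of each step is informative. In Panc02-SIY neutrophils exceeded monocytes in 8 of 8 libraries (0.70 on the log2 scale, adjusted exact p = 0.0326), and NK cells exceeded T cells in 8 of 8 (0.85, adjusted exact p = 0.0326). Macrophages, conventional dendritic cells and B cells did not differ beyond their spread. In MC38 monocytes exceeded macrophages by 0.47 (adjusted exact p = 0.0326; 0.46 with richest-library barcodes, adjusted exact p = 0.0377). T and NK cells did not differ beyond their spread there.

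Egr1, a zinc finger factor, stood apart in neutrophils. Its mean was 5078 CPM there against 473 in monocytes, 284 in conventional dendritic cells, 164 in T cells, 152 in macrophages, 130 in B cells and 100 in NK cells of Panc02-SIY. The step from neutrophils to monocytes was 3.65 on the log2 scale, in 8 of 8 libraries (adjusted exact p = 0.0326). All 8 neutrophil libraries lay between 4575 and 5759 CPM, above every other class. Dusp1 (5739 CPM in neutrophils against 1571 in monocytes, a step of 1.94), Junb (6581 against 2268, a step of 1.58) and Ier2, a nuclear regulator of early response genes (1594 against 495, a step of 1.78), showed the same first step, each with an adjusted exact p of 0.0326. The orphan nuclear receptor Nr4a1 did so as well, at 1251 against 587 CPM. Jund was highest in B cells (1731 CPM), followed by neutrophils (1007 CPM). Its step down from conventional dendritic cells to macrophages was 1.08 in Panc02-SIY (1.07 with richest-library barcodes) and 0.50 in MC38. The MC38 step could not be computed with richest-library barcodes. The smallest p this test can give with 8 libraries is 0.0078. In all, 43 of 100 neighbour pairs differed, 28 of 60 in Panc02-SIY and 15 of 40 in MC38. In MC38 the steps from T to NK cells in Jun (1.09) and Atf3 (0.96) did not hold with richest-library barcodes, where they were 0.08 and -0.05 in 5 libraries.

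Over the 94 class-by-library sums, genes outside the members whose levels were much like those of Fos, among genes with a mean of at least 50 CPM, included Spi1 (Pearson r = 0.90), Zfp36 (0.90) and Pirb (0.89). The points share libraries and depth, so these values are a description. Spi1 encodes a myeloid transcription factor, and Zfp36 encodes an mRNA-decay protein. Among the members themselves, Ier2 and Junb were most alike (r = 0.88), followed by Atf3 and Jun (0.83), and Atf3 and Jund were least alike (-0.29).

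In macrophages and T cells most members were higher in MC38 than in Panc02-SIY, whereas the other classes had fewer calls and untreated monocytes had calls in both directions. In untreated tumors 33 of 60 tests of members over populations were called, 29 higher and 4 lower in MC38, and in irradiated tumors 32 of 60 were called, 30 higher and 2 lower. A call is an edgeR quasi-likelihood adjusted p below 0.1 over all genes tested, with a fold above 1.3. Many genes differed between the tumors in these populations. In CD45+ cells 7 of 10 members were called untreated and 6 irradiated, against 63.7% and 63.6% of all genes. In monocytes 5 and 3 of 10 were called, against 46.7% and 50.5%, and in NK cells 2 and 2 of 10, against 14.6% and 22.7%. The counts in these 3 populations lie near or below the share over all genes and are not read as particular to the members. In untreated macrophages 8 of 10 members were higher in MC38, where 49.7% of all 10122 genes tested were called (23.9% of those tested were higher and 25.8% lower). The median over members was 0.69 and over all genes -0.01. In untreated T cells 9 of 10 were higher, against 18.5% of all genes called and 9.43% called higher, with a median over members of 1.13 against -0.03 over all genes. Depth within a class differed between the tumors. Median UMIs per barcode in MC38 and Panc02-SIY were 1448 and 7102 in T cells, 1995 and 2705 in macrophages and 1292 and 9724 in monocytes. They were 1713 and 4532 in NK cells and 2100.5 and 11153.5 in conventional dendritic cells. These medians are over all barcodes, including MC38 barcodes that held more UMIs in another library. None were taken for richest-library barcodes. Classes were not matched for depth, and its part was not tested.

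**Figure D2:**
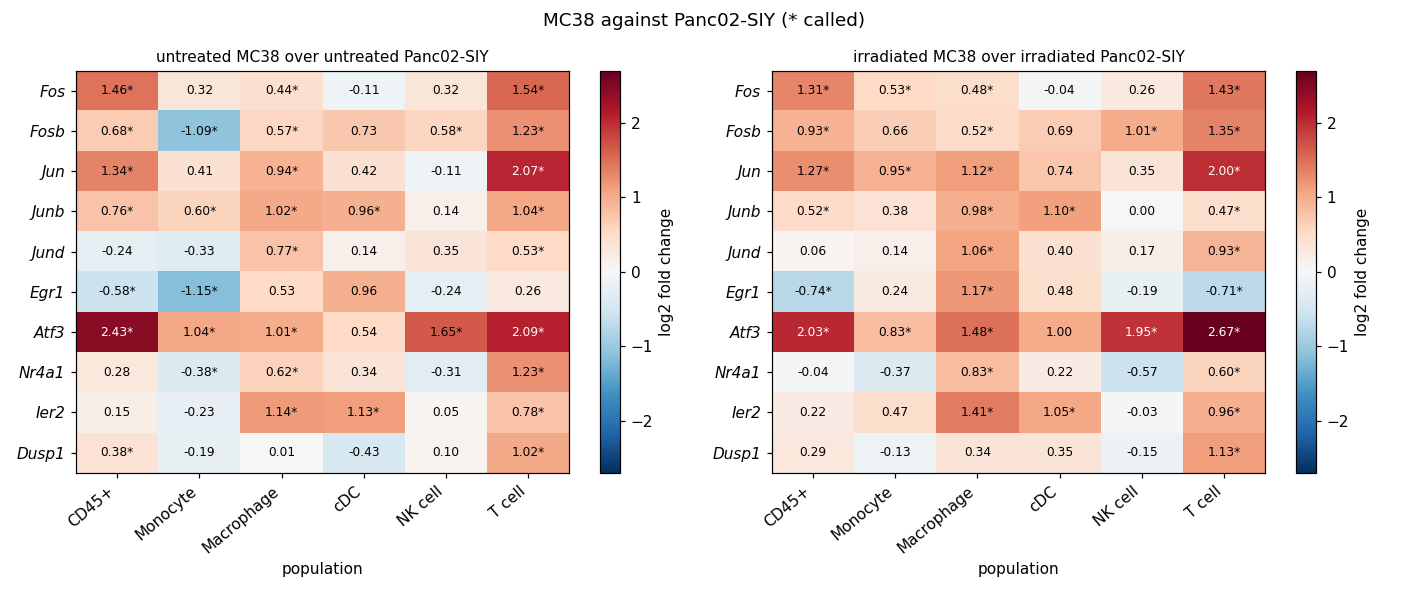
Log2 fold change of MC38 over Panc02-SIY for each member and population, in untreated and irradiated tumors, with an asterisk where the gene was called. Ier2 in macrophages is called in both panels, at 1.14 and 1.41.

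In macrophages the 4 untreated MC38 libraries had Ier2 levels of 255, 254, 277 and 228 CPM, and the 4 untreated Panc02-SIY libraries 170, 126, 96.6 and 129 CPM. The groups did not overlap, and the log2 fold change was 1.14 ± 0.13 (SE, adjusted p = 6.4e-08; 1.11 with richest-library barcodes). Jun was 384, 438, 517 and 440 CPM in untreated MC38 and 182, 292, 190 and 302 CPM in untreated Panc02-SIY. These groups did not overlap either, at a log2 fold change of 0.94 ± 0.14 (adjusted p = 6.1e-06; 0.89 with richest-library barcodes). Junb differed by 1.02, Atf3 by 1.01, Jund by 0.77, Nr4a1 by 0.62, Fosb by 0.57 and Fos by 0.44, all called (0.42 to 1.03 with richest-library barcodes). Egr1 and Dusp1 were not called in untreated macrophages. In irradiated tumors 9 of 10 were higher in MC38 macrophages (55.2% of all genes called), led by Atf3 (1.48) and Ier2 (1.41). Atf3 was 385, 357, 344 and 431 CPM in irradiated MC38 against 133, 127, 128 and 215 CPM in irradiated Panc02-SIY, without overlap. The Fos call ended without untreated Panc02-SIY replicate 1 (0.35) or 2 (0.38) in untreated tumors and without irradiated Panc02-SIY replicate 1 (0.35) in irradiated tumors. With richest-library barcodes the count stayed at 8 in untreated and was 10 in irradiated macrophages.

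In T cells Jun was 253, 235, 213 and 252 CPM in untreated MC38 and 52.1, 57.4, 49.3 and 61.3 CPM in untreated Panc02-SIY, with no overlap. The log2 fold change was 2.07 ± 0.20 (adjusted p = 1.2e-07; 1.58, adjusted p = 0.0038, with richest-library barcodes). Fos was 258, 421, 368 and 568 CPM against 163, 142, 150 and 93.3 CPM, also without overlap, at a log2 fold change of 1.54 ± 0.37 (adjusted p = 0.015; 1.45 with richest-library barcodes). Nr4a1, which is induced by T cell receptor signaling, was 258, 208, 276 and 179 CPM against 137, 78.8, 91.2 and 77.0 CPM (1.23 ± 0.23, adjusted p = 0.0011; adjusted p = 0.0049 with richest-library barcodes), with no overlap. Jund lost its call (0.53) without untreated MC38 replicate 3 (0.35, adjusted p = 0.12). In irradiated T cells, where 22.3% of all genes were called, 9 members were higher and Egr1 was lower in MC38, at -0.71 ± 0.22 (adjusted p = 0.027), which was not called with richest-library barcodes. Calls with richest-library barcodes numbered 6 in untreated and 5 in irradiated T cells. Among T cells with Cd8a or Cd8b1 transcripts, 8 of 10 members were higher in untreated MC38 (12.1% of all genes called), and 7 were higher and Egr1 lower in irradiated MC38 (20.4%), with 4 and 5 calls from richest-library barcodes. With richest-library barcodes, the CD8 T cell sums of MC38 came only from untreated replicates 2 and 4 and irradiated replicates 3 and 4. They held 13 to 24 barcodes each. The T cell class was small in MC38, with 41 to 93 barcodes a library. The summed macrophage markers in T cells were 361 to 751 CPM in untreated MC38 and 88.7 to 263 CPM in untreated Panc02-SIY, so they moved with the difference, and their part in it was not tested. The summed monocyte markers were 748 to 923 against 589 to 816 CPM untreated and 1143 to 1912 against 450 to 743 CPM irradiated.

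Monocytes were less uniform. Atf3 was higher in untreated MC38 by 1.04 ± 0.15 (adjusted p = 4.5e-06) and Junb by 0.60, whereas Egr1 (-1.15), Fosb (-1.09) and Nr4a1 (-0.38) were lower, with 46.7% of all genes called. Without untreated Panc02-SIY replicate 1 the Egr1 value was -0.69 and the Fosb value -0.68, and without replicate 2 the Fosb value was -0.78, in each case with no call. The Egr1 call also ended without untreated MC38 replicate 4 (adjusted p = 0.10). In irradiated monocytes Atf3 (0.83), Fos (0.53) and Jun (0.95) were called, all higher, with 50.5% of all genes called. With richest-library barcodes 3 members were called in each comparison. NK cells and conventional dendritic cells gave 2 calls each in each comparison, with 14.6% and 22.7% of all genes called in NK cells and 6.39% and 9.77% in conventional dendritic cells. These were Atf3 and Fosb in NK cells, and Junb and Ier2 in conventional dendritic cells, all higher in MC38. The untreated NK call of Fosb (0.58) turned to -0.18 with classes from clusters and to -0.49 with the cell filter. In NK cells richest-library barcodes gave 0 calls untreated and 1 irradiated. The conventional dendritic cell comparison could not be fitted with richest-library barcodes.

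Over all CD45+ cells Fos was 1844, 1871, 2001 and 2008 CPM in untreated MC38 against 737, 758, 640 and 1159 CPM in untreated Panc02-SIY, a log2 fold change of 1.46 ± 0.15 with no overlap. Egr1 went the other way (-0.58 ± 0.16, adjusted p = 0.0036), and 7 of 10 members were called, among 63.7% of all genes. In irradiated tumors 6 were called, again with Egr1 lower (-0.74), among 63.6% of all genes. With richest-library barcodes 6 were called in untreated and 7 in irradiated tumors. In such sums the share of a cell type and its RNA per cell cannot be told apart. Macrophages made up a median of 41.0% of untreated MC38 barcodes and 12.6% of untreated Panc02-SIY barcodes, neutrophils 0.17% and 6.02%, and T cells 4.54% and 37.2%.

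Few members were called within a class after irradiation, which does not show that the others stayed unchanged. Over the classes, the median log2 fold change of members ranged from 0.02 (monocytes) to 0.45 (T cells) in MC38. In Panc02-SIY it ranged from -0.26 (monocytes) to 0.49 (T cells), against -0.03 to 0.02 over all genes. In simulated data for the Panc02-SIY comparison, 45% (B cells) to 93% (NK cells) of 2-fold changes were called. False calls made up 6.5% (T cells) to 12.3% (B cells) of the calls there. Changes below 2-fold and the MC38 comparison were not simulated, so recovery of the smaller changes seen here is not known. In MC38, 2 of 60 tests were called, and both were Dusp1. Each is 1 call among 10 members, against 3.99% of all genes in CD45+ cells and 5.52% in macrophages. Neither count is read as particular to the members. In CD45+ cells Dusp1 was 611, 679, 732 and 659 CPM untreated and 878, 973, 930 and 974 CPM irradiated. The groups did not overlap, and the log2 fold change was 0.58 ± 0.14 (adjusted p = 0.038; 0.78, adjusted p = 0.0056, with richest-library barcodes), where 3.99% of all genes were called, 2.74% higher. The share of a cell type and its RNA per cell cannot be told apart in these sums. Macrophages made up a median of 41.0% of untreated and 39.8% of irradiated MC38 barcodes, and monocytes 21.1% and 22.4%. Of richest-library barcodes, 470 of 1327 untreated and 301 of 1305 irradiated were macrophages, and 205 and 283 were monocytes. The part of these shares was not tested. The CD45+ call of Dusp1 ended without untreated MC38 replicate 1 (0.53, adjusted p = 0.13) or 4 (0.58, adjusted p = 0.10) and without irradiated MC38 replicate 4 (0.56, adjusted p = 0.10). In macrophages it was 555, 580, 619 and 593 CPM untreated and 699, 861, 789 and 880 CPM irradiated, again without overlap (0.55 ± 0.17, adjusted p = 0.086, 5.52% of all genes called). The macrophage call ended without any MC38 library but irradiated replicate 1, at values of 0.50 to 0.59, and, of the Panc02-SIY libraries that share the fit, without untreated replicate 4 or irradiated replicate 2 (both 0.55). With richest-library barcodes 8 of 50 were called, and in macrophages these were Dusp1, Fosb, Jun, Junb and Jund. Whether calls over all genes rose as well was not tested. All 10 members had positive fold changes in MC38 macrophages, with a median of 0.33 against -0.01 over all genes. Of the MC38 classes, monocytes, NK cells, T cells and conventional dendritic cells had no call by edgeR. Of all genes, 0.0751%, 0.164%, 0.238% and 0.458% were called there. At an unadjusted p under 0.05 they had 0, 0, 3 and 2 of 10 members. At the same limit they had 388 of 7992, 516 of 6700, 662 of 8405 and 394 of 3929 genes tested. In T cells 0.178% of all genes were called higher. CD8 T cells of MC38 had no call either (0.102% of all genes called), with 2 of 10 members and 527 of 6850 genes at an unadjusted p under 0.05. With richest-library barcodes Jund was called there (0.93, adjusted p = 0.063). That comparison held only untreated replicates 2 and 4 (13 and 17 barcodes) and irradiated replicates 3 and 4 (13 and 24 barcodes). DESeq2 gave 4 calls over the 60 tests.

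**Figure D3:**
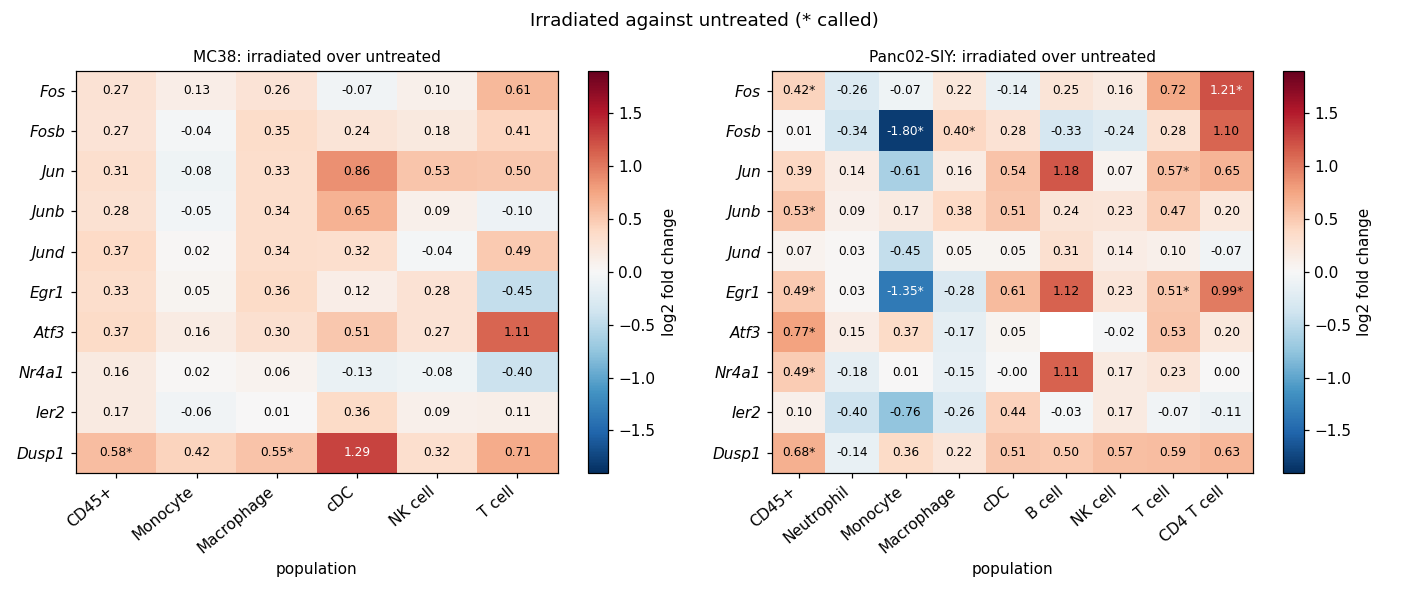
Log2 fold change of irradiated over untreated tumors for each member and population in MC38 (left) and Panc02-SIY (right), with an asterisk where called and an empty cell where the gene was not tested. Dusp1 is called in MC38, and Fosb and Egr1 in Panc02-SIY monocytes have the lowest values, -1.80 and -1.35.

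In Panc02-SIY 11 of 79 tests were called, 6 of them in all CD45+ cells, where 16.5% of all genes were called, 8.57% higher. Atf3 rose by 0.77 ± 0.20 (adjusted p = 0.016), Dusp1 by 0.68, Junb by 0.53, Egr1 by 0.49, Nr4a1 by 0.49 and Fos by 0.42. Dusp1 was 782, 541, 630 and 482 CPM untreated and 1249, 923, 1181 and 747 CPM irradiated, so that the lowest irradiated library lay within the untreated range. Atf3 was 78.5, 71.7, 75.5 and 133 CPM untreated and 188, 124, 144 and 193 CPM irradiated, which also overlapped. Egr1 was 461, 406, 270 and 395 CPM untreated and 626, 549, 616 and 477 CPM irradiated, with no overlap. The Fos call ended when any Panc02-SIY library but untreated replicate 4 and irradiated replicate 2 was left out (0.31 to 0.43), the Egr1 call without untreated replicate 3 (0.35), and the Nr4a1 call without irradiated replicate 1 (0.37). Class shares moved as well. Monocytes made up a median of 1.68% of untreated and 5.77% of irradiated barcodes, neutrophils 6.02% and 11.0%, and T cells 37.2% and 30.8%. Neutrophils, with the highest levels of Dusp1, Egr1 and Junb, had no member called within the class (0 of 10, with 0.0215% of all genes called). At an unadjusted p under 0.05 this class had 1 of 10 members and 338 of 4645 genes. Its Dusp1 levels were 6621, 5552, 6989 and 4894 CPM untreated and 4947, 5647, 5876 and 5389 CPM irradiated, and these groups overlapped. B cells (0.235% of all genes called), NK cells (0.985%) and conventional dendritic cells (1.17%) had no member called either. At an unadjusted p under 0.05 they had 2 of 9, 1 of 10 and 1 of 10 members. At the same limit they had 144 of 1702, 720 of 6700 and 436 of 3929 genes. The B cell comparison held only 2 untreated libraries (16 and 23 barcodes) against 4 irradiated ones, so its lack of calls says little. DESeq2 gave 13 calls over the 79 tests. The part of the class shares in the CD45+ differences was not tested.

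Within T cells of Panc02-SIY Jun rose from 52.1, 57.4, 49.3 and 61.3 CPM to 102, 70.9, 82.9 and 95.2 CPM without overlap (0.57 ± 0.16, adjusted p = 0.044), and Egr1 rose from 135, 129, 135 and 123 CPM to 182, 239, 199 and 167 CPM, also without overlap (0.51 ± 0.17, adjusted p = 0.075; 7.84% of all genes called, 3.05% higher). The Jun call ended without untreated replicate 3 (0.53) or irradiated replicate 1 (0.52), and the Egr1 call without untreated replicates 2, 3 or 4 or irradiated replicates 2 or 3 (0.40 to 0.53). Neither was called with richest-library barcodes, although the fold changes moved by less than 0.01. In T cells with Cd4 and without Cd8 or Foxp3 transcripts, Fos rose from 256, 361, 386 and 236 CPM to 878, 810, 605 and 635 CPM. This was a log2 fold change of 1.21 ± 0.20 (adjusted p = 0.0031), where 0.252% of all genes were called. Egr1 rose by 0.99 ± 0.21 (adjusted p = 0.047) in the same cells, from 329, 216, 276 and 292 CPM to 401, 684, 506 and 686 CPM, without overlap. These sums rested on 34 to 77 barcodes a library. CD8 T cells (7.56% of all genes called) and regulatory T cells (0.359%) had no call. At an unadjusted p under 0.05 they had 2 of 10 and 1 of 9 members, against 1344 of 6850 and 158 of 2504 genes. Regulatory T cells entered with 3 untreated libraries. Jun in CD8 T cells was 47.1 to 57.4 CPM untreated and 61.9 to 78.9 CPM irradiated. Egr1 in these cells was 114 to 132 CPM untreated and 149 to 183 CPM irradiated. The groups did not overlap in either gene, although neither was called. In macrophages only Fosb was called (0.40 ± 0.14, adjusted p = 0.094, 8.91% of all genes called), and it kept its call in 6 of 29 alternatives. This 1 call among 10 members lies near the share over all genes and is not read as particular to the members.

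Among the treatment calls of members, only those in Panc02-SIY monocytes lay below 0. Fosb was 1478, 1172, 203 and 407 CPM untreated and 369, 192, 226 and 203 CPM irradiated (-1.80 ± 0.50, adjusted p = 0.036), and Egr1 was 1277, 714, 284 and 419 CPM untreated and 324, 234, 237 and 292 CPM irradiated (-1.35 ± 0.42, adjusted p = 0.054). Untreated replicates 1 and 2 were high in both genes, and the other untreated libraries overlapped or lay near the irradiated ones. The monocyte sums of untreated Panc02-SIY held 22 to 63 barcodes, and 16.9% of all genes were called, 9.11% lower. The 2 of 10 members called lie near the share over all genes and are not read as particular to the members. Without untreated replicate 1 the Egr1 call ended (-0.89, adjusted p = 0.14), and without replicate 2 both ended (Egr1 -1.25, adjusted p = 0.14, and Fosb -1.48, adjusted p = 0.12). The Egr1 call also ended without irradiated replicate 2 (-1.27) or 3 (-1.27). With classes from clusters the Fosb value was -0.24 and the Egr1 value -0.80, both without a call. The 4 tumor or epithelial markers summed to 429 CPM in untreated replicate 1 and 112, 30.4 and 71.1 CPM in replicates 2 to 4, and their part was not tested.

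**Figure D4:**
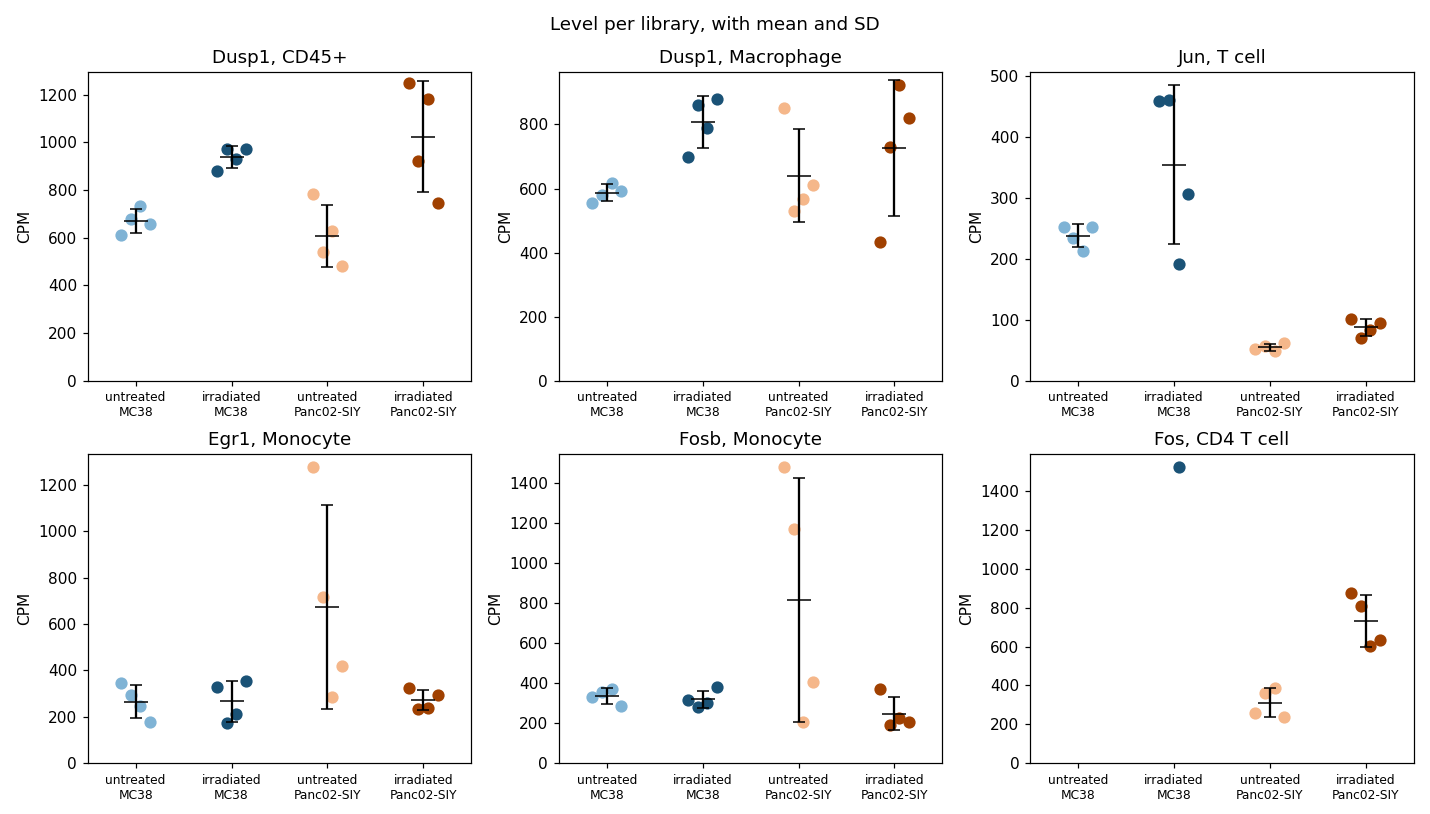
Level in CPM of 6 members and populations in each library, by group, with the mean and SD as bars. Dusp1 in MC38 does not overlap between untreated and irradiated libraries, while Egr1 and Fosb in untreated Panc02-SIY monocytes are carried by 2 libraries; the CD4 T cell panel has 1 MC38 library, which entered no test.

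The radiation effect was not shown to differ between the tumors. Of 60 tests of the difference, 0 were called by edgeR, 5 had an unadjusted p under 0.05 and DESeq2 called 0. The 5 were 3 of 10 members in T cells and 2 of 10 in monocytes. Over all genes 470 of 8405 and 1175 of 7992 reached that p there. Over all genes 2.65% were called in CD45+ cells, 2.49% in monocytes, 0.0299% in NK cells, 0.0146% in CD8 T cells and 0 in T cells, macrophages and conventional dendritic cells. Without untreated Panc02-SIY replicate 3 the count was 3, and without replicate 1 it was 1. The comparisons of treatment and of tumor share their libraries, so values are given side by side and no overlap is drawn from them.

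Genes outside the members were read from lists. Of 40 further immediate early genes, 20 were higher and 0 lower after irradiation in all CD45+ cells of Panc02-SIY and 10 and 0 in MC38, where 8.57% and 2.74% of all genes were called higher. The largest were Egr2 (1.03), Csrnp1 (0.97) and Ier3 (0.96) in Panc02-SIY, and Egr2 (0.69) and Ier5 (0.59) in MC38. In CD45+ sums the share of a cell type and its RNA per cell cannot be told apart. In Panc02-SIY the median shares of untreated and irradiated barcodes were 1.68% and 5.77% for monocytes and 6.02% and 11.0% for neutrophils. The part of these shares was not tested. In macrophages 7 of 37 tested were higher in Panc02-SIY, led by Ier3 (1.26), and 6 of 37 in MC38, led by Ier5 (0.71), where 3.55% and 2.2% of all genes were called higher. Of 16 AP-1 and ATF partners, 5 were higher and 1 lower in Panc02-SIY CD45+ cells and 1 higher in MC38, against the same 8.57% and 2.74% of all genes called higher and 7.9% called lower in Panc02-SIY. Crem, a CRE modulator, rose in CD45+ cells by 0.49 in each tumor. Of 24 kinases and partners of serum response factor, 3 were higher in Panc02-SIY and 1 in MC38, near the shares over all genes. Of 9 MAP kinase phosphatases other than Dusp1, 3 were higher in Panc02-SIY (Dusp16, Dusp22 and Dusp6) and 1 in MC38 (Dusp5), against the same shares over all genes. Of 14 heat shock genes tested, 4 fell in Panc02-SIY CD45+ cells, where 7.9% of all genes were called lower, and 0 were called in MC38, where 3.99% of all genes were called. The heat shock genes summed to 4865 to 5345 CPM in untreated and 4665 to 4965 CPM in irradiated MC38 CD45+ cells, and to 3564 to 5145 and 3435 to 4350 CPM in Panc02-SIY. Between the untreated tumors 22 of 37 further immediate early genes were higher and 4 lower in MC38 macrophages, where 23.9% and 25.8% of all genes were called higher and lower. In T cells 14 of 35 were higher and 1 lower, where 9.43% and 9.09% of all genes were.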

How the data were processed

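Live CD45+ cells of MC38 and Panc02-SIY tumors were profiled with the 10x Genomics 3′ v3.0 kit. Per the submitters' processing notes, reads were converted with bcl2fastq 2.20.0 and counted with Cell Ranger 3.1.0 against mm10. The deposited values are raw UMI counts per gene and barcode, in 1 matrix per library, and the aggregated matrix was not used here.

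Members and gene lists were chosen with earlier results of these data known. Barcodes were assigned to classes by marker share. The gate thresholds (at least 2 markers, a relative score of at least 0.25, the runner-up at most 0.5 of the top) were set after the data were seen. Mixed-marker barcodes were left out, since Scrublet's automatic threshold marked 31 of 28678 barcodes. Counts were summed per library and class (at least 10 barcodes) and tested with edgeR 4.0.16 (R 4.3.3; TMM, filterByExpr, robust quasi-likelihood F test, all groups in 1 fit). Calls were made at a false discovery rate (Benjamini-Hochberg) of 0.1 together with a fold of 1.3. Class order was tested by exact sign-flip permutation on log2(CPM + 10). All 10 members were named, together with, for each list, its counts and its called genes of largest change (up to 5 per comparison and population), and the 5 genes most like Fos; some genes that this rule names are not reported here. Alternatives included DESeq2 1.42.0, other scalings, no gene filter, other thresholds, a cell filter (at least 500 genes, at most 10% mitochondrial UMIs), thinning, Scrublet removal, clusters from scanpy 1.11.5, richest-library barcodes and each library left out. Among libraries of the same group, none repeated another within sampling noise. Libraries of different groups were not compared in this way, and the check does not address barcodes shared between libraries. The scripts were tested on simulated data. Promoter sequences are from RefSeq.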

Additional observations from a re-analysis of the deposited data

Results flagged for a closer look

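Among 270 groups of 4 libraries, 18 levels lay far from the other 3 libraries of their group by Dixon's criterion, and chance gives about 1 in 20. Values are CPM.

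In untreated Panc02-SIY replicate 1, Jun in NK cells was 205 against 122 to 131, Junb in monocytes 3556 against 1417 to 1733, Jund in T cells 896 against 721 to 740 and Egr1 in macrophages 399 against 101 to 128. In irradiated MC38 replicate 2, conventional dendritic cells held Egr1 at 860 (286 to 329 in the others), Atf3 at 1356 (244 to 416), Nr4a1 at 630 (97.4 to 165) and Dusp1 at 1872 (402 to 615). These sums held 33 to 98 UMIs of each gene.

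In irradiated Panc02-SIY replicate 4, Atf3 was 215 in macrophages (127 to 133) and 1071 in neutrophils (411 to 519), Nr4a1 in T cells was 90.8 (125 to 131) and Ier2 in neutrophils 1045 (1477 to 1520). Fosb in conventional dendritic cells of irradiated Panc02-SIY replicate 1 was 534 (259 to 291), and Jund in neutrophils of replicate 3 was 905 (1050 to 1057). Atf3 in CD45+ cells of untreated Panc02-SIY replicate 4 was 133 (71.7 to 78.5), and Nr4a1 in NK cells of replicate 3 was 248 (188 to 198). Jund in NK cells of untreated MC38 replicate 1 was 1327 (931 to 995), and Atf3 in T cells of replicate 3 was 144 (54.7 to 68.7).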

How the results depend on the processing

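Of 78 member calls in CD45+ cells and the 7 classes, 60 to 77 were kept under each alternative that changed neither cells nor libraries. With richest-library barcodes 56 were kept (18 lost, 4 could not be fitted). Calls in the T cell subsets, such as Fos and Egr1 in CD4 T cells, are not among the 78. How they hold when single libraries are left out is not reported here. For irradiated against untreated MC38 (2 calls) the count was 1 with adjusted p below 0.05, the cell filter, library size alone or a log2 fold change above 0.58, 4 with DESeq2 or thinned libraries and 8 with richest-library barcodes. Leaving out single libraries gave 0 to 4, with 0 without irradiated MC38 replicate 4 or untreated MC38 replicates 1 or 4, and 4 without irradiated MC38 replicate 1. For Panc02-SIY (11 calls) the count was 7 with adjusted p below 0.05 or richest-library barcodes and 4 with a log2 fold change above 0.58, and 6 to 16 over single libraries left out, with 6 without untreated Panc02-SIY replicate 2 and 16 without replicate 4. The difference of the radiation effect (0 calls) gave 0 to 3, with 1 without untreated Panc02-SIY replicate 1 and 3 without replicate 3. Class order (43 of 100) ranged from 34 to 52. Fosb in NK cells, untreated MC38 against Panc02-SIY (0.58), reversed to -0.18 with classes from clusters and -0.49 with the cell filter. The cause was not tested for any of these. Few barcodes limit the MC38 dendritic, NK and T cell sums and the Panc02-SIY B cell sums.

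Replicate numbers were not taken to pair the samples, since not every pair correlated: deviations of same-numbered libraries correlated at -0.03 to 0.09 in MC38 and -0.15 to 0.74 in Panc02-SIY. The replicate block gave 2 calls in MC38, 13 in Panc02-SIY, 30 and 34 between untreated and irradiated tumors, and 0 for the difference of effects. It kept 74 of 78 calls, and 3 of 4 Panc02-SIY numbers and 1 of 4 MC38 numbers correlated best with their own, a hint from the data and not the design.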
